A study of Homo sapiens with 6 samples.

Results

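The genes of the proteasome were examined in 6 cultures of TPC-1-Len, a lenvatinib-resistant subline of the human papillary thyroid carcinoma line TPC-1. In 3 cultures the cells had been transfected with an shRNA against KRT15 (sh-KRT15) and in the other 3 with a non-targeting shRNA (sh-NC). Both groups were resistant and were kept in 10 µM lenvatinib, an inhibitor of receptor tyrosine kinases, so no drug-free or sensitive culture stood beside them. The design text calls the cultures biological replicates without saying whether the transfections were separate, and p-values therefore measure the spread between these 6 libraries. The members were the protein-coding rows whose symbol is PSM, a letter from A to G and a number, 47 genes of 22681 in the table. They comprised the α and β rings of the core, the cap, the activators with 1 inhibitor, and the assembly chaperones, and 46 of them had enough reads to be tested.

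The proteasome degrades proteins that carry ubiquitin chains. Its core is a barrel of α and β rings, with the proteolytic sites on the inner face of the β rings. A cap with a ring of ATPases and a lid of non-ATPase subunits binds the substrate, removes its ubiquitin and threads it into the core. Interferon-γ induces alternative catalytic subunits that form the immunoproteasome, and the PA28 activator, and both shape the peptides shown on MHC class I. Chaperones assemble the rings and then leave. Proteasome genes are expressed in every dividing cell, and their basal transcription rises together through the factor NFE2L1 (NRF1) when degradation is impaired.

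PSMB8, PSMB10, PSME1 and PSME2 carry a short sequence in common, shown here because some of them rose and others did not pass. PSMG4 carries it too, and PSMB9 does not. The capitals mark the letters GAAANNGAAA, the core of an interferon-stimulated response element, and GGGNNTTNCC, an NF-κB type core, on either strand. Each run is the RefSeq promoter window on GRCh38.p14, from 250 bases before to 50 after the transcript start, written 5′ to 3′ on the strand of the gene. PSMB8 at chr6:32843998-32844297 (minus strand, the downstream of its listed starts) and TAP1 at chr6:32853655-32853954 (minus) lie near PSMB9 at chr6:32853942-32854241 (plus). PSMB10 is at chr16:67936801-67937100 (minus), PSME1 at chr14:24135944-24136243 (plus), PSME2 at chr14:24146561-24146860 (minus) and PSMG4 at chr6:3258697-3258996 (plus).
PSMB8: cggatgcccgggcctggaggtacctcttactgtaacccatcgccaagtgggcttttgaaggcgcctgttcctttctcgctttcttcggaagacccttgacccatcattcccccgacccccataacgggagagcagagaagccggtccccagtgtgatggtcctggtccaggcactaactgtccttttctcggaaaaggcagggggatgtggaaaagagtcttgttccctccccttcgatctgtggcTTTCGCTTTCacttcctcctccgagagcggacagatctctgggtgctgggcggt
PSMB10: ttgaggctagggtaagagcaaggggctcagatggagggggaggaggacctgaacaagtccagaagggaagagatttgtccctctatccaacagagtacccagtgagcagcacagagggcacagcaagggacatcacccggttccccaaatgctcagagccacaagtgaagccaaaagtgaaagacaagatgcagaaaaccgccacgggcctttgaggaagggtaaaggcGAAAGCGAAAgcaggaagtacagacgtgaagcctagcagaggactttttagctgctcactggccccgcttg
PSME1: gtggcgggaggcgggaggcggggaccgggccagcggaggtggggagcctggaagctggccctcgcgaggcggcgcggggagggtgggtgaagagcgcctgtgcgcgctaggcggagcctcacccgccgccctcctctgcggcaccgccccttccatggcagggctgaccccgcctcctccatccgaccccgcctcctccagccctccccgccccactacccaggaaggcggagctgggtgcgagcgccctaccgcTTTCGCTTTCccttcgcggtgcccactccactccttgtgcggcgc
PSME2: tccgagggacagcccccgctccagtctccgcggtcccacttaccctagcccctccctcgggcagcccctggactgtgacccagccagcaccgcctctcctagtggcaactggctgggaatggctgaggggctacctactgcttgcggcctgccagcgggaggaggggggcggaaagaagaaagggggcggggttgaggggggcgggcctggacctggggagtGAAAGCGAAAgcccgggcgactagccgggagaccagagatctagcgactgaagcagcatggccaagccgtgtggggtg
PSMG4: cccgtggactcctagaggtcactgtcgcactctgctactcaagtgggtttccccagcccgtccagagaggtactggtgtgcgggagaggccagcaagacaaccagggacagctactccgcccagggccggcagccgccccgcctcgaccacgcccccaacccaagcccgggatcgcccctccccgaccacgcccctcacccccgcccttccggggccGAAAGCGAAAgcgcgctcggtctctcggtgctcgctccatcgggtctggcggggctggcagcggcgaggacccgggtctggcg
TAP1: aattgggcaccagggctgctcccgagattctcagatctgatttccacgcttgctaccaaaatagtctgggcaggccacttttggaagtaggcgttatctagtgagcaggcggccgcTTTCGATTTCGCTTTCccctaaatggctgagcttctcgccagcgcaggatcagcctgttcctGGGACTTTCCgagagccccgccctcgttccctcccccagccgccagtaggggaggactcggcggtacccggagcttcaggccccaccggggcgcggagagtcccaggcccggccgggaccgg
PSMB9: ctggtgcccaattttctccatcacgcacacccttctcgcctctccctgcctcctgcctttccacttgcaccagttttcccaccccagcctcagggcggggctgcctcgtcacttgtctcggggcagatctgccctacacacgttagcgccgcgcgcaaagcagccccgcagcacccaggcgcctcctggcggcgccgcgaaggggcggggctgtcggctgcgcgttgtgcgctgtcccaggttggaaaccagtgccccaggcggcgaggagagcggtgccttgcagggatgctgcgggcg
The exact letters GAAAGCGAAA were chosen after these sequences were seen, as the form of the core that most member windows held. A high share of members was therefore fixed by the choice and does not measure enrichment. These letters stood in the windows of PSMB8, PSMB10, PSME1, PSME2 and PSMG4. They were thus in 5 of the 41 members with a window (12.2%), against 34 of 27305 genes with a window in all (0.125%). The windows of the peptide transporter genes TAP1 and TAP2 held them too. TAP1 and PSMB9 are transcribed away from each other from starts 488 bases apart, and the interferon-type and NF-κB-type letters of that stretch lie on the TAP1 side, none in the PSMB9 window. A match of letters does not show that a factor binds there. The looser core GAAANNGAAA was in the windows of 7 members (17.1%), adding PSMA4 (gaaaatgaaa) and PSMB4 (gaaaaagaaa), against 4.38% of all genes. The letters TGACNNNGC, the core of the antioxidant response element that NFE2L1 recognises, were in 15 of 41 members (36.6%) and in 16.1% of all genes. Of the other letters searched, CCGGAAG (an ETS-type core) was in 36.6% of members and 12.2% of all genes. TTCNNNGAA (a STAT-type core) was in 19.5% and 9.38%, GGGNNTTNCC in 4.88% and 6.85%, and the CCAAT box in 46.3% and 39.7%. All were searched on both strands, and overlapping matches of different motifs were all counted. A gene counted if any of its windows matched. The 27305 genes include non-coding genes and genes not tested here, so the shares do not compare members with similarly expressed genes. No window was searched for PSMA7, PSMB1, PSMB6, PSMB7, PSMD4 and PSMG3.

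Libraries held 39868231 to 41343780 counted reads in sh-KRT15 and 36286059 to 36808695 in sh-NC. KRT15 itself stood at 24.7 ± 0.365 CPM in sh-KRT15 and at 32.3 ± 3.77 CPM in sh-NC (SD, n = 3 each), a log2 fold change of −0.38 ± 0.10 (SE). CPM are read counts relative to library size, scaled between libraries by TMM. Of the thyroid markers, PAX8 was high (410 and 375 CPM in sh-KRT15 and sh-NC). In the same order FOXE1 averaged 15.3 and 14.6 CPM, HHEX 7.85 and 8.64, TG 0.808 and 1.58, and SLC26A4 0.546 and 0.549 CPM. TSHR and NKX2-1 were nearly absent (0 and 0.00941 CPM each). The epithelial adhesion genes EPCAM and CDH1 were nearly absent too (0.049 and 0.0188 CPM, and 0.00824 and 0.0371 CPM). Leukocytes express the immunoproteasome. The leukocyte list summed to 158 to 186 CPM in sh-KRT15 and 208 to 209 CPM in sh-NC, almost all of it CD68 and LAPTM5. Of its 4 tested genes 3 fell (75.0%), where 23.0% of all tested genes did. These were CD68 (59.6 and 87.9 CPM in sh-KRT15 and sh-NC) and, at low levels, CSF1R (0.862 and 3.54) and LYZ (0.0494 and 0.541). LAPTM5 did not pass (log2 fold change −0.08 ± 0.07). PTPRC, the leukocyte common antigen, had 0 reads in the 3 sh-KRT15 libraries and 0.140 to 0.580 CPM in sh-NC. Fibroblast genes summed to 7.67 to 8.45 CPM in sh-KRT15 and 17.7 to 23.2 CPM in sh-NC, and endothelial genes to 0.815 to 1.68 CPM in sh-KRT15 and 0.674 to 1.13 CPM in sh-NC. Epithelial genes summed to 248 to 259 CPM in sh-KRT15, against 147 to 160.5 CPM in sh-NC, mostly KRT18, and thyroid genes to 413 to 460 against 397 to 406 CPM, mostly PAX8. Mitochondrially encoded genes took 4.86 to 6.54% of reads in sh-KRT15 and 4.99 to 5.24% in sh-NC. The part of these genes in the results below was not tested.

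Proteasome genes moved little in sh-KRT15 cells, and those that changed mostly rose. Of 46 tested members, 17 rose, 5 fell and 24 did not pass the test (edgeR quasi-likelihood test, adjusted p under 0.05 by Benjamini-Hochberg over 14356 genes, which is the test behind every adjusted p below). Together 47.8% of the members were called, close to the 45.0% of all tested genes. By direction the members called higher were 37.0%, where 22.1% of all genes were, and the members called lower 10.9%, where 23.0% of all genes were. The median log2 fold change was 0.09 over the members and 0.00 over all genes, on a scale where positive values are higher in sh-KRT15. Sizes were small: the members' log2 fold changes ran from −0.31 to 0.51, with a median absolute value of 0.19 against 0.31 over all genes. Of the members 1 (2.17%) reached 0.5 in either direction, where 31.3% of all genes did. Members averaged 9.15 to 649 CPM with a median SE of 0.076. All tested genes reached down to 0.162 CPM, with a median SE of 0.111, and the part of level in this contrast was not tested. Groups did not overlap for 24 members (52.2%), 19 with sh-KRT15 above (41.3%) and 5 below (10.9%), where 54.0% of all genes did not overlap, 26.9% above and 27.1% below. As bulk libraries average over all cells, a change in RNA per cell and a change in the share of cells cannot be told apart. As counts are scaled to library size, a change in the total RNA of a cell would not be seen. The rises of PSMA4, PSMB2, PSMB3, PSMB8, PSMB9, PSMC3, PSMD3, PSMD4, PSME1 and PSMG1 kept their call and direction under all 16 alternatives run, and none of the 5 falls did. With total-count scaling 21 members rose (45.7%) and 2 fell (4.35%), and of all genes 26.1% rose and 18.9% fell, their median log2 fold change moving to 0.06.

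**Figure D1:**
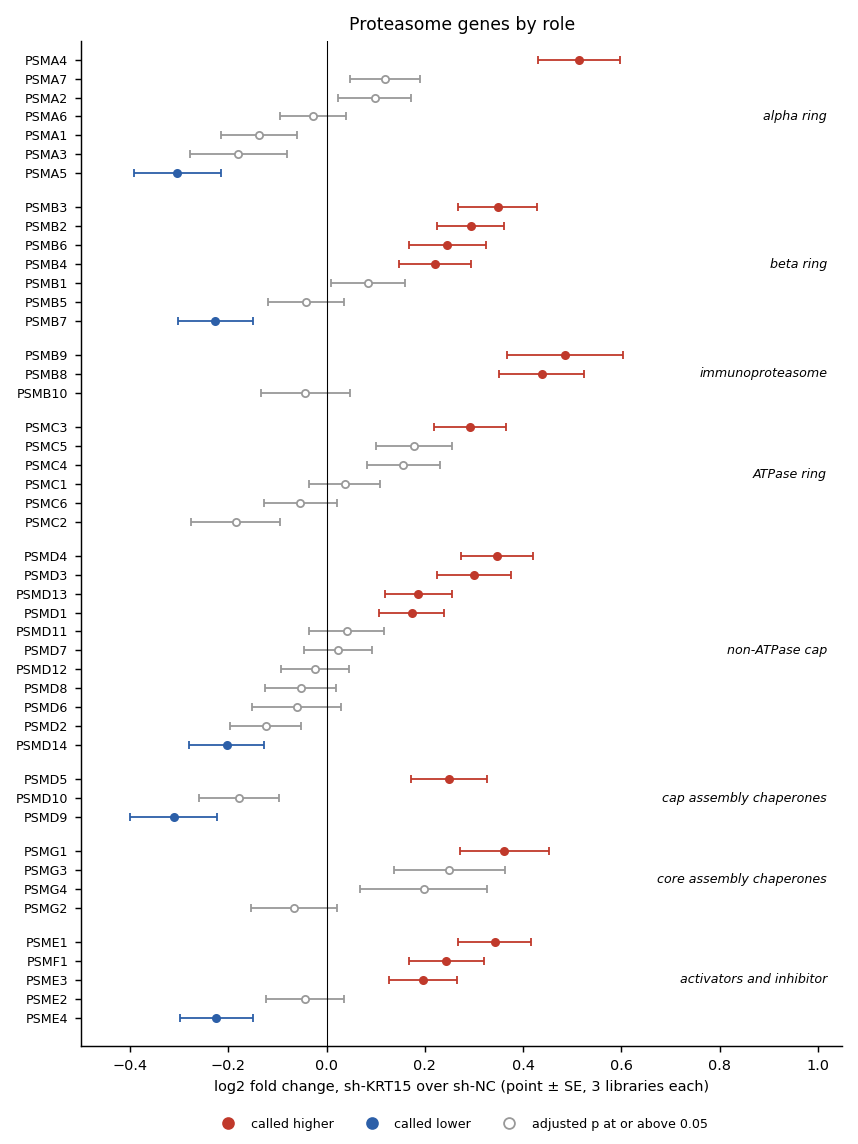
Log2 fold change (x axis, sh-KRT15 over sh-NC, point ± SE, 3 libraries in each group) of the 46 tested proteasome genes, grouped by role (rows). Filled red points are the 17 genes called higher, filled blue points the 5 called lower and open points the 24 that did not pass; every role group holds called and uncalled genes.

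The summed level of all members was 7075, 7146 and 7374 CPM in sh-KRT15 replicates 1 to 3, against 6506, 6722 and 7302 CPM in sh-NC replicates 1 to 3. Those sums overlap, because sh-NC replicate 3 stood near the sh-KRT15 libraries. That replicate had the highest level of its group for 38 of the 46 members (82.6%), where it was highest for 39.0% of all tested genes. Without it, 21 members rose (45.7%) and 3 fell (6.52%), with a median log2 fold change of 0.16, where 22.4% of all genes rose and 23.5% fell. PSMA2, PSMA7, PSMC5 and PSMG3 then joined the rises (adjusted p = 0.043, 0.0216, 0.011 and 0.0111), and the calls of PSMB7 (0.0606) and PSMD14 (0.0993) were lost. Without sh-KRT15 replicate 3, 10 members rose (21.7%) and 3 fell (6.52%), and calls over all genes also dropped, to 17.8% higher and 18.9% lower. Without sh-KRT15 replicate 1, 13 members rose (28.3%) and none fell, where 17.4% of all genes rose and 18.0% fell. What sets sh-NC replicate 3 apart was not tested.

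**Figure D2:**
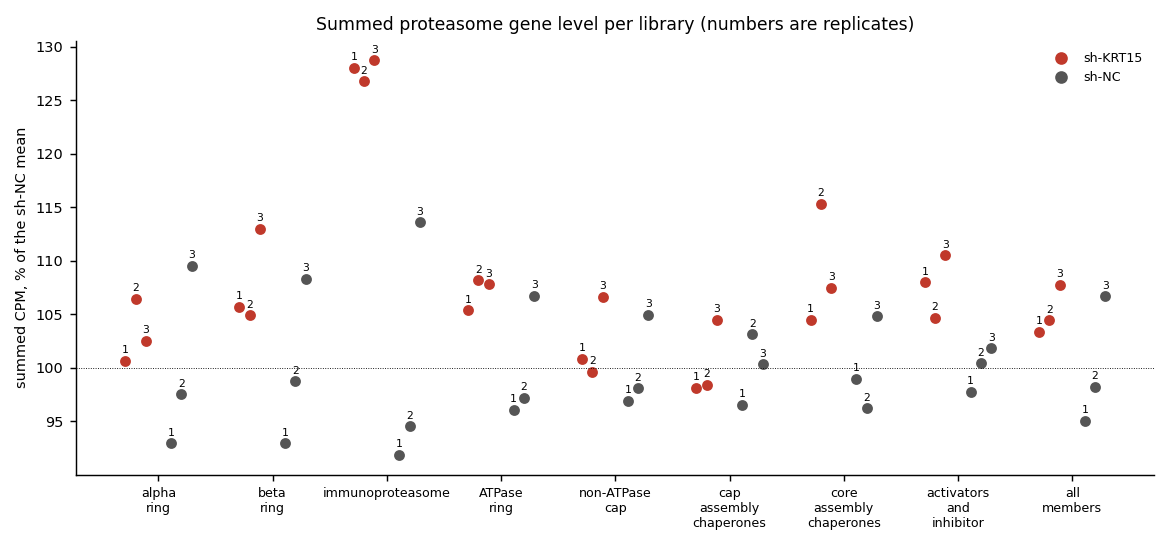
Summed CPM of each role group in each library (y axis, percent of the sh-NC mean of that group; x axis, role groups; red, sh-KRT15; grey, sh-NC; numbers, replicates). Immunoproteasome sums were 175 to 177.5 CPM in sh-KRT15 and 127 to 157 CPM in sh-NC, without overlap. Sums of the activators and inhibitor did not overlap either (628 to 663 CPM in sh-KRT15, 587 to 611 CPM in sh-NC). By contrast, sh-NC replicate 3 lies above the sh-KRT15 libraries for the α ring and among them for the β ring and the sum of all members.

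Of the inducible catalytic subunits, PSMB8 and PSMB9 rose and PSMB10 did not pass; differences in fold change between genes were not tested. PSMB8 (β5i), which replaces PSMB5, had 128, 124 and 127 CPM in sh-KRT15 libraries, against 84.5, 87.6 and 108 CPM in sh-NC libraries. It rose by 0.44 ± 0.09 on the log2 scale (adjusted p = 0.000565). PSMB9 (β1i), which replaces PSMB6, had 21.5, 21.9 and 21.1 CPM in sh-KRT15, against 14.1, 13.8 and 18.3 CPM in sh-NC, a rise of 0.49 ± 0.12 (adjusted p = 0.00281). For both genes all sh-KRT15 libraries lay above all sh-NC libraries, and sh-NC replicate 3 was the highest of its group. PSMB10 (β2i), which replaces PSMB7, had 27.2, 28.5 and 29.03 CPM in sh-KRT15 and 28.1, 29.02 and 30.2 CPM in sh-NC. Its groups overlapped, and its log2 fold change was −0.04 (95% interval −0.23 to 0.15, adjusted p = 0.729), an interval that lies below those of PSMB8 (0.25 to 0.62) and PSMB9 (0.24 to 0.73). PSMB8 lies on the minus strand of chromosome 6 from 32840717 to 32844679 and PSMB9 on the plus strand from 32854192 to 32859851, both in the MHC class II region. PSMB10 lies on chromosome 16 from 67934506 to 67936850 (RefSeq, GRCh38.p14).

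Of the constitutive catalytic subunits, PSMB6 rose, PSMB7 fell and PSMB5 did not pass. PSMB5, which carries the chymotrypsin-like site that bortezomib blocks, had 154, 149 and 171 CPM in sh-KRT15 and 152, 159.5 and 175 CPM in sh-NC, overlapping groups with a log2 fold change of −0.04 (95% interval −0.20 to 0.12, adjusted p = 0.70). PSMB6, with the caspase-like site, had 119, 123 and 134 CPM in sh-KRT15, against 97.9, 105 and 114 CPM in sh-NC, and rose by 0.25 ± 0.08 (adjusted p = 0.0164). PSMB7, with the trypsin-like site, had 267, 260 and 288 CPM in sh-KRT15, against 296, 308 and 349 CPM in sh-NC, and fell by 0.23 ± 0.08 on the log2 scale (adjusted p = 0.0224). The groups of PSMB6 and PSMB7 did not overlap, but neither call was kept throughout. PSMB6 missed the threshold without sh-KRT15 replicate 3 or sh-NC replicate 1 or 2 (adjusted p = 0.0657 to 0.0739). PSMB7 missed it without sh-KRT15 replicate 1 or 2 or sh-NC replicate 2 or 3 (0.0506 to 0.109) and with total-count scaling (0.0708).

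Set against the subunit it replaces, per kilobase of annotated transcript, PSMB8 reached 95.8, 96.3 and 85.6% of the PSMB5 level in sh-KRT15, against 63.9, 63.2 and 70.9% in sh-NC. These groups did not overlap. PSMB10 stood at 8.19, 8.83 and 8.11% of PSMB7 in sh-KRT15, against 7.62, 7.59 and 6.97% in sh-NC, again without overlap, while PSMB7 was the member of that pair that changed. PSMB9 stood at 19.7, 19.4 and 17.2% of PSMB6 in sh-KRT15, against 15.7, 14.2 and 17.5% in sh-NC, and here the groups overlapped, both genes being higher in sh-KRT15. The ratios are descriptions without a test, and they depend on the transcript lengths taken from GENCODE.

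**Figure D3:**
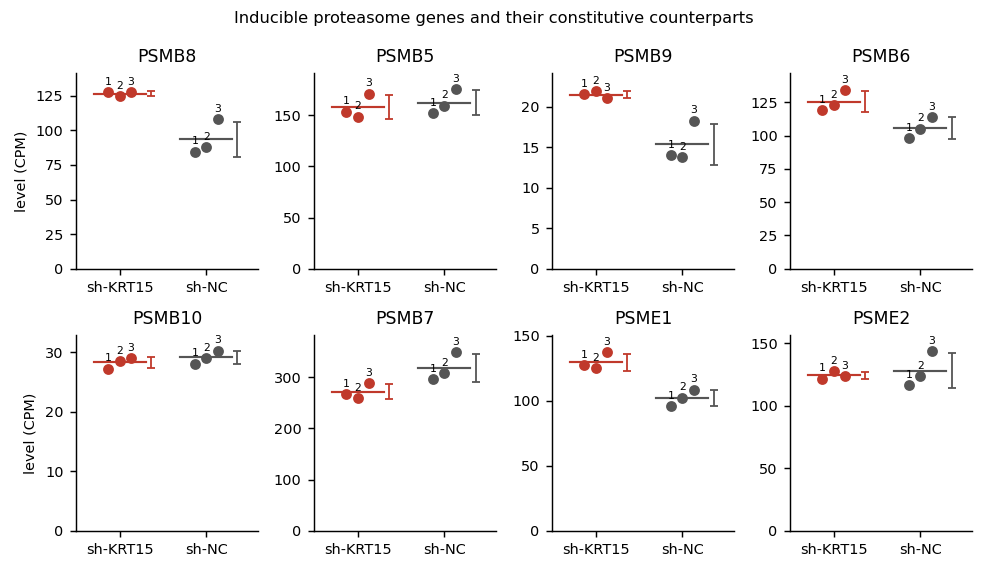
Levels in CPM (y axes, from 0) of the inducible genes PSMB8, PSMB9, PSMB10 and PSME1 and of PSMB5, PSMB6, PSMB7 and PSME2 in each library (points, numbered by replicate; lines, means; bars, SD, n = 3). PSMB8, PSMB9, PSMB6 and PSME1 have all sh-KRT15 points above all sh-NC points, PSMB7 has them below, and PSMB5, PSMB10 and PSME2 overlap.

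Of the activators and the inhibitor, PSME1, PSME3 and PSMF1 rose, PSME4 fell and PSME2 did not pass. PSME1 and PSME2 encode the α and β subunits of PA28, which form 1 ring that opens the core. PSME1 had 127, 125 and 137 CPM in sh-KRT15, against 96.1, 102 and 108 CPM in sh-NC, and rose by 0.34 ± 0.07 (adjusted p = 0.00117). PSME2 had 122, 127 and 123.5 CPM in sh-KRT15 and 117, 124 and 143 CPM in sh-NC, with a log2 fold change of −0.04 (95% interval −0.21 to 0.13, adjusted p = 0.693). The PSME1 libraries separated by hairpin and those of PSME2 did not, although both windows printed above hold the same 10 letters. Per kilobase, PSME1 stood at 146, 137 and 155% of PSME2 in sh-KRT15, against 115, 115 and 106% in sh-NC, without overlap. PSME3, which encodes the nuclear homolog PA28γ, had 205, 188 and 211 CPM in sh-KRT15, against 173, 178 and 175 CPM in sh-NC, and rose by 0.20 ± 0.07 (adjusted p = 0.0289). PSME4, which encodes the large activator PA200, had 100.1, 104 and 97.7 CPM in sh-KRT15, against 125, 119 and 109 CPM in sh-NC, and fell by 0.22 ± 0.07 on the log2 scale (adjusted p = 0.0206). PSMF1, the inhibitor PI31, had 94.2, 84.2 and 94.1 CPM in sh-KRT15, against 75.5, 79.7 and 74.9 CPM in sh-NC, and rose by 0.24 ± 0.08 (adjusted p = 0.0153). In all 3 the hairpins separated without overlap. The call of PSME3 was lost without sh-KRT15 replicate 1 or 3 or sh-NC replicate 1 or 2 (adjusted p = 0.0635 to 0.106) and with the GC and length correction (0.119). PSME4 lost its call without the same 4 libraries (0.0674 to 0.111) and with total-count scaling (0.0897), and PSMF1 without sh-KRT15 replicate 1 (0.0798) or 3 (0.053).

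In the α ring, which gates the barrel, 1 of 7 tested genes rose, 1 fell and 5 did not pass. Of all tested genes 22.1% rose and 23.0% fell, and differences between role groups were not tested. PSMA4 had the largest change of all members. It stood at 204, 235 and 201 CPM in sh-KRT15, against 141, 140 and 166 CPM in sh-NC, a rise of 0.51 ± 0.08 (adjusted p = 8.79e-05). PSMA5 had 109, 125 and 109 CPM in sh-KRT15, against 125, 139 and 158 CPM in sh-NC, and fell by 0.30 ± 0.09 on the log2 scale (adjusted p = 0.010). The highest sh-KRT15 library of PSMA5 overlapped the lowest sh-NC library. That fall was lost without sh-KRT15 replicate 1 (adjusted p = 0.0708) and nearly vanished with the GC and length correction (−0.06, adjusted p = 0.589). The 5 that did not pass ran from −0.18 to 0.12. PSMA7, the most abundant core gene, averaged 589 ± 20.9 CPM in sh-KRT15 and 543 ± 41.3 CPM in sh-NC and did not pass (adjusted p = 0.196). PSMA8, the testis form of PSMA7, had 0 reads in sh-KRT15 and 1 in sh-NC and was not tested.

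In the constitutive β ring, 4 of 7 genes rose, and PSMB7 fell, where 22.1% of all genes rose and 23.0% fell. PSMB3 had 165, 161 and 168 CPM in sh-KRT15, against 114, 132 and 142 CPM in sh-NC (0.35 ± 0.08, adjusted p = 0.00189). PSMB2 had 255, 242 and 263 CPM in sh-KRT15, against 197, 209 and 215 CPM in sh-NC (0.29 ± 0.07, adjusted p = 0.0021). Both are structural, non-catalytic subunits, and in both the hairpins separated. PSMB4 rose by 0.22 ± 0.07 (adjusted p = 0.022), a call lost without sh-KRT15 replicate 3 or sh-NC replicate 1 or 2 (0.0746 to 0.104). PSMB1 did not pass (0.08 ± 0.08), but was called higher with the GC and length correction (0.34, adjusted p = 0.000243).

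In the ATPase ring, which unfolds substrates, PSMC3 alone of 6 genes passed, where 45.0% of all genes did. It had 182, 182 and 199 CPM in sh-KRT15, against 147, 148 and 165 CPM in sh-NC, a rise of 0.29 ± 0.07 (adjusted p = 0.00334). The other 5 ran from −0.18 (PSMC2) to 0.18 (PSMC5). PSMC5 was called higher without sh-NC replicate 3, with total-count scaling (adjusted p = 0.0178) and with the replicate block (0.0453), and PSMC4 with total-count scaling (0.0188). PSMC1 has 13 annotated pseudogenes in GENCODE release 29, so its count is uncertain.

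Of 11 non-ATPase subunits of the cap, 4 rose, 1 fell and 6 did not pass, where 22.1% of all genes rose and 23.0% fell. PSMD4 (RPN10), a ubiquitin receptor, had 219, 222 and 236 CPM in sh-KRT15, against 167, 171 and 194 CPM in sh-NC (0.35 ± 0.07, adjusted p = 0.000985). PSMD3 (RPN3), a scaffold of the lid, had 207, 199 and 234 CPM in sh-KRT15, against 168, 171 and 181 CPM in sh-NC (0.30 ± 0.07, adjusted p = 0.00338, but 0.15 with the GC and length correction). The hairpins separated in both. PSMD14 (RPN11), the deubiquitinase that strips the chain from the substrate, had 136, 152 and 135 CPM in sh-KRT15, against 155, 157 and 175 CPM in sh-NC, and fell by 0.20 ± 0.08 on the log2 scale (adjusted p = 0.0374). With the GC and length correction its log2 fold change was 0.18 (adjusted p = 0.0514), the opposite direction. Its call was also lost without sh-KRT15 replicate 1 or 3 or sh-NC replicate 2 or 3 (adjusted p = 0.071 to 0.187). PSMD13 (RPN9, 0.19 ± 0.07, adjusted p = 0.0343) and PSMD1 (RPN2, 0.17 ± 0.07, adjusted p = 0.0425) rose narrowly. Both were lost without sh-KRT15 replicate 1 or 3 or sh-NC replicate 1 or 2 (0.063 to 0.145) and with no filter on low counts (0.0533 and 0.072), and PSMD13 also with the GC and length correction (0.14). The 6 that did not pass ran from −0.12 to 0.04. PSMD2 (RPN1), the most abundant member, averaged 621 ± 41.5 CPM in sh-KRT15 and 676 ± 30.9 CPM in sh-NC without passing (−0.12, adjusted p = 0.174). It was called lower with that correction (−0.28, adjusted p = 0.000189).

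Assembly chaperones went both ways. PSMG1 (PAC1), which with PSMG2 (PAC2) builds the α ring, had 38.5, 40.5 and 38.9 CPM in sh-KRT15, against 33.3, 29.5 and 28.9 CPM in sh-NC, and rose by 0.36 ± 0.09 (adjusted p = 0.00347). PSMG2 had 54.4, 63.7 and 54.3 CPM in sh-KRT15 and 58.3, 58.1 and 64.1 CPM in sh-NC, overlapping groups with a log2 fold change of −0.07 (95% interval −0.25 to 0.12). PSMG3 (PAC3) had 19.8, 21.8 and 22.8 CPM in sh-KRT15 and 16.2, 17.3 and 20.7 CPM in sh-NC (adjusted p = 0.0825). PSMG4 (PAC4), its partner, had 9.89, 9.32 and 10.1 CPM in sh-KRT15 and 8.34, 7.97 and 9.26 CPM in sh-NC (adjusted p = 0.234). Neither passed, although the PSMG4 groups did not overlap. Of the chaperones of the cap base, PSMD5 (S5b) rose by 0.25 ± 0.08 (adjusted p = 0.0147, but 0.0803 without sh-KRT15 replicate 3). PSMD9 (p27) had 36.7, 37.8 and 38.7 CPM in sh-KRT15, against 42.4, 48.2 and 49.9 CPM in sh-NC, and fell by 0.31 ± 0.09 on the log2 scale (adjusted p = 0.00858, but 0.0586 without sh-KRT15 replicate 1). PSMD10 (gankyrin) stood at −0.18 ± 0.08 (adjusted p = 0.0857).

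Across the 46 tested members, the Spearman correlation of log2 fold change with GC content was 0.35, given as a description because the genes share libraries. Over all 13369 tested genes with a value it was 0.26. The median GC content was 48.8% in members called higher (41.2 to 56.2%), 41.5% in those called lower (32.0 to 50.9%) and 47.7% in those that did not pass, and these ranges overlapped. After each library was corrected for its trend with GC content and length, 19 members rose (41.3%) and 5 fell (10.9%). Of all genes with a value, 24.6% then rose and 25.3% fell. Of the 22 calls of members, 18 remained in their direction, and the correlation over the members was −0.14. PSMA2, PSMA6, PSMB1 and PSMD12 then joined the rises, and PSMD2 and PSMD8 the falls. PSMA5, PSMD13, PSMD14 and PSME3 lost their calls. Among the calls that remained, PSMD3 (0.15) and PSME4 (−0.14) shrank by more than 1.5 times, and PSMD5 (0.38) and PSMD9 (−0.47) grew by as much. Whether the trend arose in the libraries or in the cells cannot be told apart here.

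**Figure D4:**
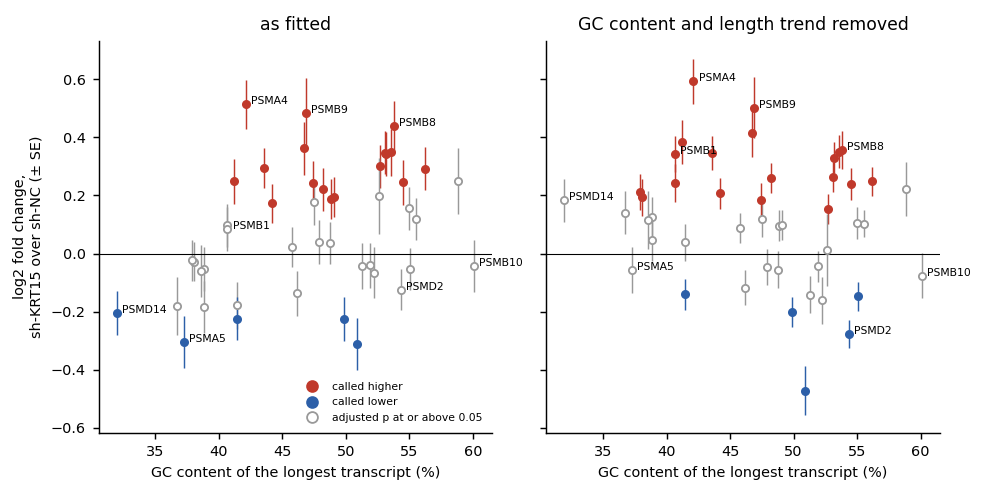
Log2 fold change (y axes, sh-KRT15 over sh-NC, ± SE) against GC content of the longest transcript (x axes, percent) for the 46 tested members, as fitted (left) and with the GC and length correction (right). PSMD14, the member with the lowest GC content (32.0%), lies at −0.20 on the left and at 0.18 on the right, while PSMA4, PSMB8 and PSMB9 are called higher in both.

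Among genes that work with the proteasome but carry other symbols, NFE2L2, UBA6 and NGLY1 fell most and PAAF1 rose most. Of 27 listed partners, all tested, 4 rose, 5 fell and 18 did not pass, with a median log2 fold change of 0.03. Their 33.3% called lay below the 45.0% of all genes, with 14.8% higher and 18.5% lower. PAAF1, which binds free ATPases of the cap, had 17.4, 16.6 and 20.3 CPM in sh-KRT15, against 12.95, 11.1 and 14.3 CPM in sh-NC (0.50 ± 0.12, adjusted p = 0.00318). NFE2L2 (NRF2), a factor of the antioxidant response, fell by 0.61 ± 0.07 on the log2 scale (adjusted p = 3.63e-06), UBA6, a ubiquitin-activating enzyme, by 0.57 ± 0.09 (adjusted p = 8.67e-05), and NGLY1, which removes glycans from NFE2L1 during its activation, by 0.54 ± 0.10 (adjusted p = 0.000333). These 4 genes kept their calls under all 16 alternatives, but with the GC and length correction UBA6 stood at −0.31 and NGLY1 at −0.29. NFE2L1 itself (0.04 ± 0.07, adjusted p = 0.698) and its protease DDI2 (0.03 ± 0.11) did not pass. POMP, which encodes the maturation factor of the core, was called lower (−0.32 ± 0.09, adjusted p = 0.00592), but stood at 0.16 with the GC and length correction (adjusted p = 0.0533), and was called higher when the replicate block was added to it (0.0181). AKIRIN2, which carries proteasomes into the nucleus, fell narrowly (−0.25 ± 0.09, adjusted p = 0.0335), as VCP (0.22 ± 0.07), UBQLN4 (0.19 ± 0.08) and RAD23B (0.17 ± 0.07) rose narrowly. These 4 each lost their call without sh-KRT15 replicate 3 or sh-NC replicate 2 (adjusted p = 0.0526 to 0.167). With the GC and length correction VCP (0.08, adjusted p = 0.163) and UBQLN4 (0.06, adjusted p = 0.450) were not called, and RAD23B stood at 0.26. AKIRIN2 was not called with total-count scaling (adjusted p = 0.0935). Without a low-count filter the calls of AKIRIN2 (adjusted p = 0.0533), UBQLN4 (0.0679) and RAD23B (0.0694) were lost. The cap subunits ADRM1 (0.01 ± 0.07) and SEM1 (−0.37 ± 0.15, adjusted p = 0.0589) did not pass, and SEM1 was called lower with DESeq2 (0.0259), with no filter on low counts (0.000882) and without sh-KRT15 replicate 2 (0.0221) or sh-NC replicate 1 (0.0349) or 2 (0.0185). With the GC and length correction SEM1 stood at −0.02 (adjusted p = 0.943), and at 0.02 when the replicate block was added (0.902).

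Among genes that accompany the immunoproteasome, STAT2, NLRC5 and ERAP1 rose and TAP1, TAP2, B2M and ERAP2 fell. Of 10 listed genes of antigen presentation and interferon signalling, 3 rose (30.0%), 4 fell (40.0%) and 3 did not pass, where 22.1% of all genes rose and 23.0% fell. TAP1, which shares its intergenic start region with PSMB9, had 90.9, 78.0 and 84.4 CPM in sh-KRT15, against 109, 118 and 119 CPM in sh-NC, and fell by 0.45 ± 0.08 on the log2 scale (adjusted p = 0.00015). Its divergent neighbour PSMB9 rose in the same libraries. TAP2 fell by 0.24 ± 0.07 (adjusted p = 0.00942, but 0.0549 without sh-KRT15 replicate 1), B2M by 0.32 ± 0.08 (adjusted p = 0.00266) and ERAP2 by 0.49 ± 0.08 (adjusted p = 9.97e-05). The interferon signal transducer STAT2 (0.43 ± 0.09, adjusted p = 0.000792) and the class I transactivator NLRC5 (0.52 ± 0.10, adjusted p = 0.000441) rose, as did the peptidase ERAP1 (0.28 ± 0.09, adjusted p = 0.0209, but 0.0514 to 0.0679 without sh-KRT15 replicate 2 or 3 or sh-NC replicate 3). IRF1 (0.13 ± 0.08), IRF9 (−0.03 ± 0.10) and TAPBP (−0.11 ± 0.08) did not pass. With the GC and length correction NLRC5 stood at 0.32, B2M at −0.18 and ERAP1 at 0.44. Of the 27 tested genes whose window holds GAAAGCGAAA, 9 rose (33.3%) and 7 fell (25.9%), where 22.1% and 23.0% of all genes did, with a median log2 fold change of 0.05. These genes include the members PSMB8, PSMB10, PSME1, PSME2 and PSMG4, whose windows gave the letters, and TAP1, TAP2 and PSMB8-AS1. The shares thus partly count the same results again and are no separate result.

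**Figure D5:**
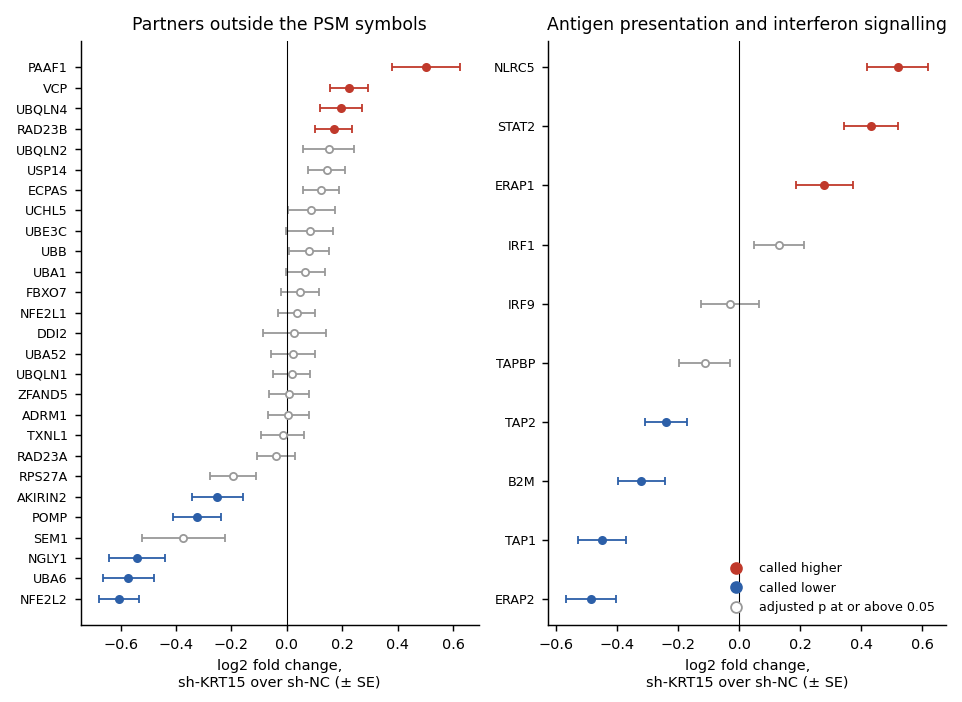
Log2 fold change (x axes, sh-KRT15 over sh-NC, point ± SE, 3 libraries in each group) of 27 partners of the proteasome (left) and of 10 genes of antigen presentation and interferon signalling (right). NLRC5 (0.52) and PAAF1 (0.50) are the highest points and NFE2L2 (−0.61), UBA6 (−0.57) and NGLY1 (−0.54) the lowest.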

How the data were processed

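RNA was extracted with TRIzol and mRNA libraries were built for Illumina sequencing, per the labels' protocols. The deposited values are raw counts, whole reads per gene and library, per the file headers and values, and the build was GRCh38 per the submitters' processing notes. No source used here names the aligner, counter, annotation or strand setting, so antisense reads cannot be separated. Reads of 12 members with annotated pseudogenes (GENCODE release 29) may have been split. Among these were the called members PSMB3, PSMB7 and PSMD4 (1 pseudogene each), and PSME2 (2), which did not pass.

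The test was edgeR's (version 4.0.16) quasi-likelihood test on the counts (R 4.3.3, TMM, robust dispersions, group as the only term). Genes were kept by filterByExpr (minimum count 10, minimum total 15), and p-values were adjusted by Benjamini-Hochberg over the 14356 genes tested. SE is the absolute log2 fold change divided by the square root of F, and intervals are 95%. No library pair agreed within sampling noise (chi-square per degree of freedom 6.24 to 31.1 within groups), so all 6 entered.

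Per-length levels used the median length of GENCODE principal transcripts, and GC content that of the longest transcript. Alternatives were other scalings, DESeq2 1.42.0, limma-voom (limma 3.58.1), other filters, the replicate block, trend removal and leaving out each library. The named members were the catalytic, inducible, activator and core chaperone genes, with the 6 largest called rises and falls of the rest, and from each outside list the 4 largest changes and genes that carry a result. Members and lists were chosen with earlier results of these data known. From those lists 2 genes are not reported here.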

Additional observations from a re-analysis of the deposited data

How the results depend on the processing

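Of the counts, 17 rises stayed between 15 and 21 and 5 falls between 4 and 5 under the alternatives that kept all libraries, except that 2 members fell with total-count scaling. Rises were thus 31.9 to 45.7% of members, where 14.1 to 26.1% of all genes rose and 15.1 to 25.3% fell. Leaving out a library gave 10 to 21 rises (21.7 to 45.7%) and 0 to 5 falls (0 to 10.9%). Of all genes, 17.4 to 22.4% then rose and 18.0 to 23.5% fell. DESeq2, limma-voom, RLE size factors and a filter of 1 CPM in 3 libraries kept all 22 calls.

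Removing the GC content and length trend reversed 10 members: PSMA3 (0.14), PSMA6 (0.19), PSMC1 (−0.055), PSMC2 (0.048), PSMC6 (0.13), PSMD6 (0.12), PSMD11 (−0.045), PSMD12 (0.21), PSMD14 (0.18) and PSMD10 (0.038). With the replicate block beside it they stood at 0.15, 0.19, −0.056, 0.052, 0.13, 0.12, −0.043, 0.21, 0.19 and 0.039. Total-count scaling reversed PSMA6 (0.033), PSMB5 (0.017), PSMB10 (0.016), PSMC6 (0.0077), PSMD8 (0.0065), PSMD12 (0.036) and PSME2 (0.017), none of them called. Without 1 library, sign changes were seen in PSMA6 (−0.049 to 0.0035), PSMB5 (−0.10 to 0.017), PSMD7 (−0.0020 to 0.045), PSMD8 (−0.087 to 0.0055), PSMD11 (−0.017 to 0.085), PSMD12 (−0.032 to 0.0035) and PSME2 (−0.0995 to 0.045). The cause was not tested. Same-numbered libraries did not deviate together (correlations 0.019, −0.0074 and 0.046), so the numbers were not read as pairs. With the replicate block 18 members rose (39.1%) and 5 fell (10.9%), where 23.0% of all genes rose and 23.9% fell. PSMC5 was the only member whose call changed with the block. The alternative that adds pseudogene reads was not run.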

Other observations

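Among other tested genes with related symbols, PSMB8-AS1, PSMA3-AS1 and PSME3IP1 were called, and PSMG3-AS1 and PSMC3IP were not. Of all tested genes 45.0% were called. PSMG3-AS1 stood at 0.31 ± 0.37 (edgeR adjusted p = 0.525), and PSMD6-AS2 had too few reads to be tested. PSMB8-AS1, the antisense transcript at PSMB8, averaged 5.67 ± 0.481 CPM in sh-KRT15 and 4.01 ± 0.143 CPM in sh-NC (SD, n = 3 each), a log2 fold change of 0.50 ± 0.17 (edgeR adjusted p = 0.0234). Its span (chromosome 6, 32844086 to 32846500) overlaps that of PSMB8 (32840717 to 32844679) in part. With no strand setting given, reads of the 2 genes in the shared stretch cannot be told apart. PSMA3-AS1 averaged 9.18 ± 1.69 CPM in sh-KRT15 and 12.4 ± 0.505 CPM in sh-NC (−0.43 ± 0.14, adjusted p = 0.0183), beside PSMA3, which did not pass (−0.18 ± 0.10, adjusted p = 0.158). PSME3IP1, whose product binds PA28γ, rose by 0.26 ± 0.08 (adjusted p = 0.0139), and PSMC3IP, a meiotic recombination factor, did not pass (0.34 ± 0.22, adjusted p = 0.225).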
